A study of Homo sapiens with 13 samples.

Results

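The 10 BCL2 family genes described here were BCL2, BCL2L1 and MCL1, which hold cell death back, BAX and BAK1, which carry it out, and BCL2L11, BBC3, PMAIP1, BID and BAD, which set it off. Every probe on the array that was not a control and bore the name of a member was taken, which gave 16 of 34127 probes and 10 of 25940 target names. BCL2L11 had 3 probes, BCL2, BAX, BID and BAD had 2 each, and the other 5 genes had 1 each. All 16 probes were well above background on all 13 arrays, so no member was lost to the filter on dim probes.

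RNA came from CCRF-CEM, a human leukemia line of T lymphoblasts, and was taken from the parental line (CEM PA) and from a derivative resistant to FK866 (CEM RES). FK866 blocks NAMPT, the enzyme that remakes NAD from nicotinamide. Cells of both lines were exposed to 5 nM FK866 or to DMSO (mock) for 48 h, giving 3 mock and 2 FK866 arrays for CEM PA and 4 mock and 4 FK866 arrays for CEM RES. CEM RES was selected by stepwise increases of the drug, the cells used were resistant to 100 nM, and by the study's methods the subline was grown with the drug in its medium. Mock CEM RES had therefore met FK866 before. All results on resistance rest on this single derived subline. In bulk RNA, fewer cells of a kind and less RNA per cell cannot be told apart.

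The family controls the outer membrane of the mitochondria. BAX and BAK1 form pores in it, through which cytochrome c escapes and starts the caspases. BCL2, BCL-XL (the main product of BCL2L1) and MCL1 bind BAX and BAK1 and keep them inactive. The BH3-only proteins BIM (BCL2L11), PUMA (BBC3), NOXA (PMAIP1), BID and BAD relieve this block or act on BAX and BAK1 directly, and lymphoid cells are known to depend strongly on BIM.

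Several results below differ between probes of the same gene, so the probes that carry them are shown. Each probe was 60 bases long, and bases 31 to 60 are printed 5′ to 3′ from the array design, with positions on the hg19 build given for the whole probe. Capitals mark AATAAA, the signal that precedes the end of many mRNAs, searched as these letters on the strand of the probe. It was found in 2 of the 16 member probes, the middle probe of BCL2L11 and that of PMAIP1, and in 7.67% of all 34127 probes. The BCL2L11 probes lay on the plus strand at chr2:111878705-111878764, chr2:111886352-111886411 and chr2:111925892-111925951, and the array files assign the 5′ and the middle probe to transcript variant 9 and the 3′ probe to variant 1. The BCL2 probes lay on the minus strand at chr18:60985401-60985460 (variant beta) and chr18:60790723-60790782 (variant alpha), 194678 bases apart. The BAX probes lay on the plus strand at chr19:49464454-49464513 (variant beta) and chr19:49464904-49464963 (variant sigma), 450 bases apart.
BCL2L11 5′ probe: tgactctgactctcggactgagaaacgcaa
BCL2L11 middle probe: tatggtcattggtgattaAATAAAatgtat
BCL2L11 3′ probe: gggtaattgccactttacttgtgcaatact
BCL2 5′ probe: tgtgtgtggagagcgtcaaccgggagatgt
BCL2 3′ probe: aaaaatacggtaaggatactttacatggtt
BAX 5′ probe: gaccctctgaccctagctctttcctttttt
BAX 3′ probe: tatggcatttttctgggaggggtggggatt

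Between 26457 and 33239 of 43118 spots per array were well above background, and replicate arrays had a Pearson correlation of 0.977 to 0.991 across probes, which are not independent replicates. All 14 T lymphoblast markers checked, among them CD3D, CD7, CD5, LCK, TAL1 and NOTCH1, were well above background on every array. Between the mock-treated lines 2 of the 14 were higher in CEM RES at an adjusted p under 0.05 in limma, CD3E (1.12) and CD3G (1.20). Another 3 were lower, CD5 (-1.96), NOTCH3 (-1.91) and PTCRA (-1.24), where 47.6% of all probes differed. Of 5 epithelial markers KRT8 and KRT18 were well above background on every array and EPCAM and CDH1 on none. The B cell genes CD79A and CD79B were well above background on every array and CD22 on none. Between the mock-treated lines CD79A differed by -0.42 (adjusted p = 0.0779 from limma) and CD79B by -1.17 (adjusted p = 0.000268), and under FK866 by -0.72 and -1.54. Of the other lists, 2 of 5 myeloid and 0 of 5 fibroblast markers were well above background on every array. The part of other cells in the results was not tested. CEM PA arrays were scanned in sessions 1 and 2 and all CEM RES arrays in session 3, so scan session and cell line cannot be told apart. Session 1 held 1 mock CEM PA array and session 2 held 2. Between these sessions, mock CEM PA arrays differed on the log2 scale by 0.81 at the 5′ probe of BCL2L11 and 0.66 at the 3′ probe of BAX. They differed by 0.49 at the 5′ probe of BCL2, -0.39 at BCL2L1 and -0.35 at the 3′ probe of BAD. The difference was 0.31 or less in size at BAK1, BBC3, PMAIP1 and the 3′ probe of BCL2L11.

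**Figure D1:**
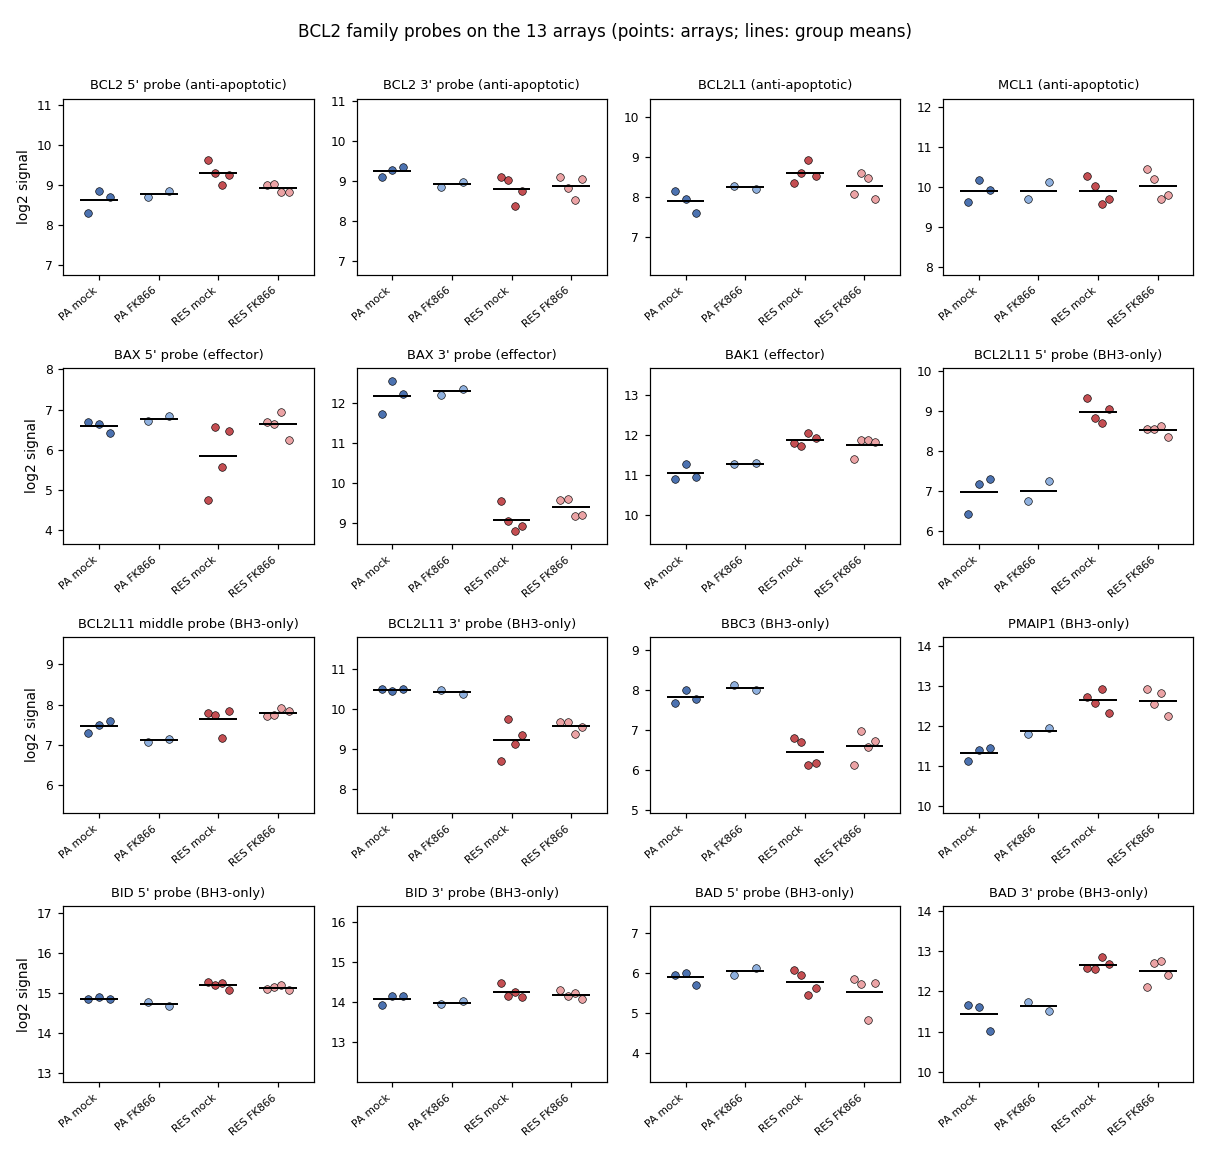
Normalized log2 signal of each of the 16 BCL2 family probes on the 13 arrays, with a point for each array, a line at each group mean and a vertical range of equal length in every panel. The 3′ probe of BAX stands lower in CEM RES (8.80 to 9.59) than in CEM PA (11.72 to 12.54), and the 5′ and 3′ probes of BCL2L11 move in opposite directions between the lines.

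The question of the first comparison was which transcripts answer to FK866 in the sensitive parental cells. None of the 16 member probes passed the study's double threshold, an absolute log2 fold change over 0.75 with an unadjusted p under 0.05, which 6.69% of all 22751 probes tested passed. At an adjusted p under 0.05 the count was also 0 of 16, against 1.53% of all probes. This share rested on 348 probes and moved with the settings, to 3 probes with only the compared groups fitted and 1411 with array quality weights. It also fell without CEM PA FK866 replicate 1 or 2, which leaves 1 FK866 array in the fit. Before adjustment 1 member probe, PMAIP1, was under 0.05 in limma, against 3271 of all 22751 probes. The groups did not overlap for 6 of 16 probes, against 34.8% of all probes.

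PMAIP1, whose product NOXA binds and disables MCL1, differed most. Its log2 signal was 11.11, 11.40 and 11.45 on the mock arrays and 11.79 and 11.95 with FK866. Both FK866 arrays lay above all mock arrays, and the log2 fold change was 0.55 (95% interval 0.05 to 1.06, adjusted p = 0.297 from limma). It was 0.68 within scan session 1 (1 mock and 1 FK866 array) and 0.53 within session 2 (2 mock and 1 FK866 array).

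Among the anti-apoptotic members, MCL1 differed by 0.00 with FK866 in CEM PA (95% interval -0.61 to 0.61). BCL2L1 had a log2 signal of 8.17, 7.96 and 7.61 on mock and 8.28 and 8.22 on FK866 arrays, a difference of 0.34 (95% interval -0.19 to 0.86). The 3′ probe of BCL2 read 9.10, 9.29 and 9.36 in mock and 8.87 and 8.99 with FK866, a difference of -0.32 (95% interval -0.83 to 0.19), while its 5′ probe differed by 0.16. Both sets of arrays were apart for BCL2L1 and for the 3′ probe of BCL2, but neither difference passed the test.

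No effector and no other BH3-only gene passed a test in CEM PA. BAX differed at its 3′ probe by 0.12 (95% interval -0.47 to 0.70), BAK1 by 0.25 (95% interval -0.17 to 0.66) and BBC3 by 0.24 (95% interval -0.34 to 0.81). The 3 probes of BCL2L11 gave 0.04, -0.34 and -0.07 from 5′ to 3′, those of BID -0.13 and -0.09, and those of BAD 0.16 and 0.20. Over the 4 anti-apoptotic probes the median log2 fold change was 0.08, and over the 12 pro-apoptotic probes 0.14. The median over all probes was 0.00, and the median absolute change was 0.17 for the members and 0.25 for all probes. The intervals of BCL2L1, BBC3 and the 3′ probe of BCL2 reached past 0.75 in size. So did those of the middle probe of BCL2L11 and of the 5′ probes of BAX and BAD. With 2 FK866 arrays a change of that size could not be told from none in these. The interval of PMAIP1 (0.05 to 1.06) also reached past 0.75 but left out 0, with an adjusted p of 0.297 from limma.

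In CEM RES, the FK866 comparison had 1 of 16 member probes past the double threshold, against 1.3% of all probes, and 0 of 16 passed an adjusted p of 0.05, against 0% of all probes. At an unadjusted p under 0.05 limma gave 2 member probes and 1171 of all 22751. The groups were apart for 1 member probe, against 2.91% of all probes. The probe past the double threshold was the 5′ probe of BAX, the pore-forming effector, and it was dim. It read 4.74, 6.57, 5.57 and 6.46 on the mock arrays and 6.69, 6.64, 6.95 and 6.23 with FK866. The mock arrays spread over almost the whole range and overlapped the FK866 arrays. The log2 fold change was 0.79 (95% interval 0.06 to 1.52, adjusted p = 0.938 from limma). Deviations of mock and FK866 arrays with equal replicate numbers had correlations of 0.2 to 0.474 in CEM RES, and unequal numbers were not compared. A block for the replicate number left the log2 fold change at 0.79. The unadjusted p from limma went from 0.0352 to 0.0688, which ended the call, and the adjusted p was 0.469. Without CEM RES mock replicate 1 it was 0.43 and did not pass, and it also failed without CEM RES mock replicate 3 or without CEM RES FK866 replicate 1, 2 or 3.

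BCL2L11 at its 5′ probe read 9.34, 8.84, 8.70 and 9.06 on the mock CEM RES arrays and 8.56, 8.56, 8.64 and 8.35 with FK866. All FK866 arrays lay below all mock arrays, with a log2 fold change of -0.45 (95% interval -0.91 to 0.00, adjusted p = 0.938 from limma). The 3′ probe of the same gene differed by 0.34 in the other direction (95% interval -0.08 to 0.75). The 5′ probe of BCL2 differed by -0.38 (95% interval -0.73 to -0.02) with the 3′ probe at 0.07, BCL2L1 by -0.32 (95% interval -0.73 to 0.08) and MCL1 by 0.15 (95% interval -0.33 to 0.62). PMAIP1 differed by -0.01 in CEM RES (95% interval -0.40 to 0.38). Over the members the median log2 fold change was -0.03, against -0.02 over all probes.

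**Figure D2:**
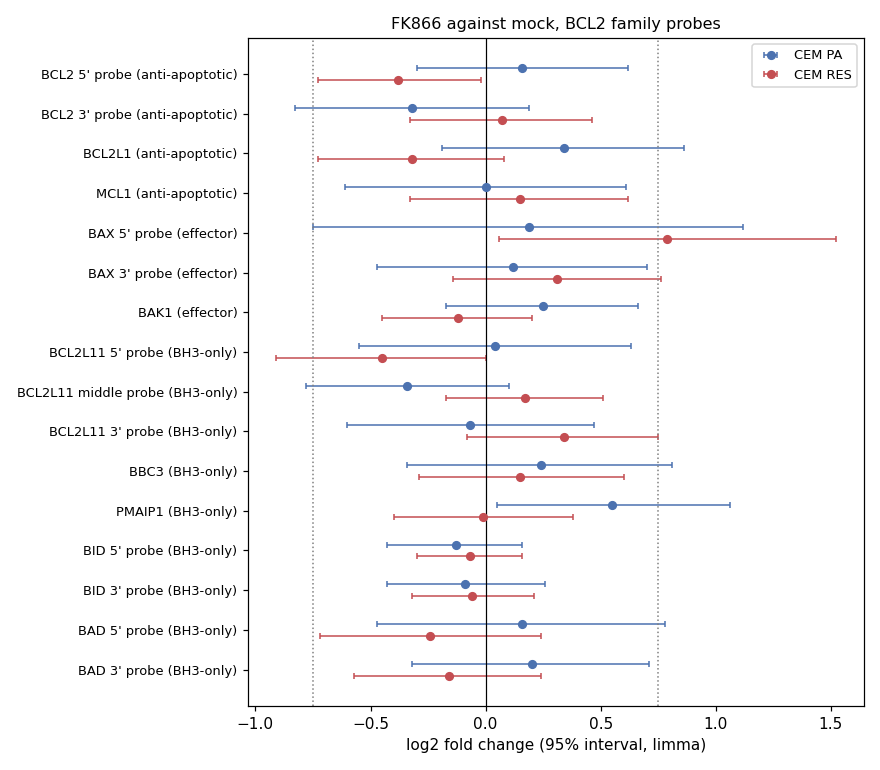
Log2 fold change of FK866 against mock for each member probe in CEM PA (blue) and CEM RES (red), with 95% intervals from limma and dotted lines at the fold change limit of 0.75. All estimates lie between -0.45 and 0.79, and PMAIP1 in CEM PA (0.55) and the 5′ probe of BAX in CEM RES (0.79) lie farthest above 0.

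Whether the lines answered differently was read from the interaction of line and drug. It passed the double threshold for 0 of 16 member probes, against 8.03% of all probes, and an adjusted p of 0.05 also for 0, against 0.413% of all probes. At an unadjusted p under 0.05 limma gave 0 member probes and 2758 of all 22751. BCL2L1 came nearest, with a response in CEM RES lower than in CEM PA by 0.66 on the log2 scale (95% interval -1.32 to 0.00, adjusted p = 0.412 from limma). The difference in response was -0.56 for PMAIP1 (95% interval -1.20 to 0.08) and -0.54 for the 5′ probe of BCL2 (95% interval -1.12 to 0.04). BCL2L1 passed the double threshold without CEM PA mock replicate 1 (-0.79) or without CEM RES FK866 replicate 2 (-0.77). With the slide as a block the difference in response was -0.79 for the 5′ probe of BCL2. That fit compared CEM PA only within slide 1, on 1 mock and 1 FK866 array.

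More member probes passed the tests between the lines. Comparing mock-treated CEM RES with mock-treated CEM PA asked what set the resistant cells apart without fresh drug, and 7 of 16 member probes passed the double threshold, 4 higher and 3 lower, where 35.6% of all probes passed. An adjusted p under 0.05 was reached by 10 member probes, against 47.6% of all probes, and the groups did not overlap for 10, against 48.8%. The share of members that differed was thus near that of the whole array. All 7 probes past the double threshold belonged to pro-apoptotic genes, and they did not move in the same direction.

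**Figure D3:**
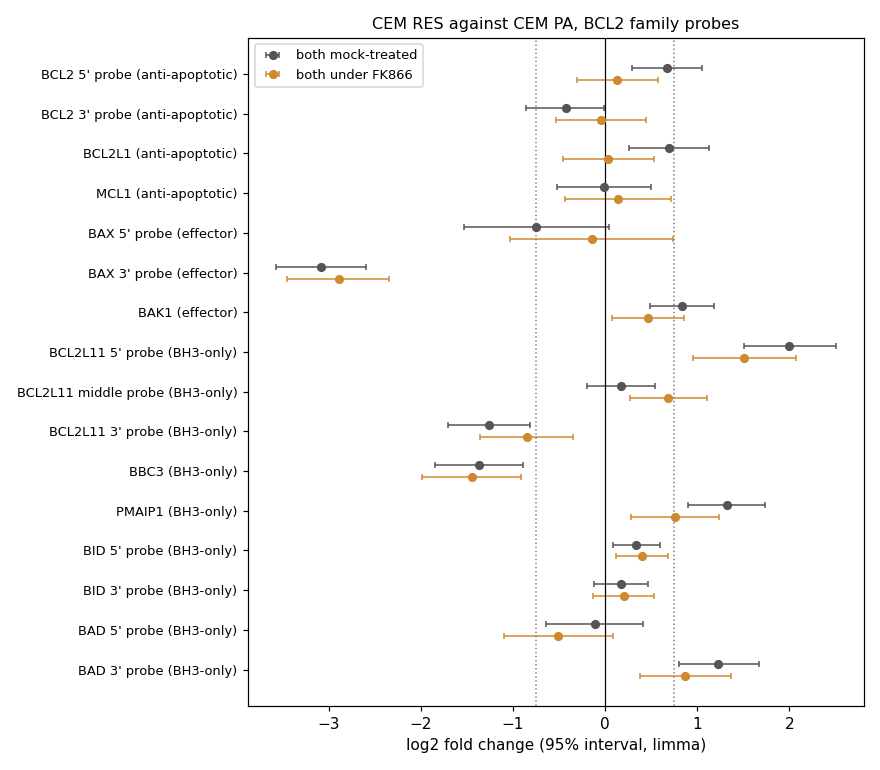
Log2 fold change of CEM RES against CEM PA for each member probe, with both lines mock-treated (grey) and both under FK866 (orange), 95% intervals from limma and dotted lines at 0.75. The 3′ probe of BAX lies lowest (-3.08 and -2.89) and the 5′ probe of BCL2L11 highest (2.00 and 1.51).

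Of the effectors, BAX fell and BAK1 rose in the resistant line. The 3′ probe of BAX read 11.72, 12.54 and 12.21 on the mock CEM PA arrays and 9.53, 9.04, 8.80 and 8.92 on the mock CEM RES arrays. Every CEM RES array lay below every CEM PA array, by more than either group spread. The log2 fold change was -3.08 ± 0.22 (standard error, with adjusted p = 1.77e-06 in limma), an 8.48-fold lower signal. No other member probe differed as much. This probe passed in all 24 alternative limma fits that gave it a value, from -3.35 to -2.89. The exact permutation test gave p = 0.0571, the smallest it allows here.

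The 5′ probe of BAX was much less apart. It read 6.69, 6.64 and 6.42 in mock-treated CEM PA, and its 4 mock CEM RES arrays ran from 4.74 to 6.57. The difference of -0.75 (95% interval -1.53 to 0.04, adjusted p = 0.106 from limma) did not pass. Both probes were thus lower on average in CEM RES, by amounts that differed by 2.34.

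BAK1, the other pore former, read 10.91, 11.27 and 10.95 on the mock CEM PA arrays and 11.81, 11.73, 12.06 and 11.92 on the mock CEM RES arrays. All CEM RES arrays were higher, with a log2 fold change of 0.83 ± 0.16 (standard error, with limma adjusted p = 0.00119), or 1.78-fold. With array quality weights the change was 0.74, just under the fold change limit.

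Among the BH3-only genes, both BBC3 and PMAIP1 are known targets of p53, and between the lines BBC3 fell while PMAIP1 rose. BBC3, which encodes PUMA, read 7.68, 8.01 and 7.78 on the mock CEM PA arrays and 6.80, 6.71, 6.14 and 6.18 on the mock CEM RES arrays. The groups were apart, with a log2 fold change of -1.37 ± 0.22 (standard error, with limma adjusted p = 0.000384), a 2.58-fold lower signal. PMAIP1 read 11.11, 11.40 and 11.45 in CEM PA against 12.73, 12.58, 12.92 and 12.32 in CEM RES. All CEM RES arrays were higher, by 1.32 on the log2 scale (standard error 0.19, adjusted p = 0.000207 from limma), or 2.49-fold.

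BAD, which binds BCL2 and BCL-XL, rose on its 3′ probe and not on its 5′ probe. The 3′ probe (chr11:64037483-64037542, transcript variant 1) read 11.66, 11.61 and 11.02 on the mock CEM PA arrays and 12.58, 12.56, 12.85 and 12.68 on the mock CEM RES arrays, a log2 fold change of 1.23 ± 0.20 (standard error, with limma adjusted p = 0.000385). The 5′ probe (chr11:64044428-64044487), which the files assign to an Ensembl transcript, was dim, between 5.43 and 6.07 on these 7 arrays, and differed by -0.11 (95% interval -0.64 to 0.41). With both probes averaged BAD was 0.56 higher (adjusted p = 0.00882 from limma), under the fold change limit.

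BID, which caspase 8 cuts to link death receptors to the mitochondria, changed little. Its 5′ probe read 14.84 to 14.90 on the mock CEM PA arrays and 15.08 to 15.28 on the mock CEM RES arrays. The groups were apart by 0.34 on the log2 scale (standard error 0.11, adjusted p = 0.0278 from limma), under the fold change limit. The 3′ probe, whose start lay 83 bases further on, differed by 0.17 (95% interval -0.12 to 0.46).

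BCL2L11, which encodes BIM, changed in opposite directions along its length. The 5′ probe read 6.44, 7.18 and 7.32 on the mock CEM PA arrays and 9.34, 8.84, 8.70 and 9.06 on the mock CEM RES arrays. It was higher on every CEM RES array, by 2.00 on the log2 scale (standard error 0.23, adjusted p = 3.51e-05 from limma), or 4.01-fold. The middle probe read 7.29, 7.5 and 7.58 in CEM PA against 7.79, 7.74, 7.16 and 7.83 in CEM RES, a difference of 0.17 (95% interval -0.20 to 0.54). The 3′ probe read 10.51, 10.46 and 10.51 in CEM PA against 8.70, 9.76, 9.12 and 9.35 in CEM RES. It was lower on every CEM RES array, by -1.26 (standard error 0.21, adjusted p = 0.000411 from limma), a 2.40-fold lower signal. The 5′ and middle probes shown above start 7647 bases apart and the middle and 3′ probes 39540 bases apart. With the 3 probes averaged, BCL2L11 as a gene was 0.31 higher and did not pass (adjusted p = 0.104 from limma), so its direction between the lines depended on the probe.

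With every array in the fit, no anti-apoptotic probe passed the double threshold between the lines. BCL2L1 read 8.17, 7.96 and 7.61 on the mock CEM PA arrays and 8.35, 8.62, 8.93 and 8.53 on the mock CEM RES arrays. All CEM RES arrays were higher, by 0.69 (standard error 0.20, adjusted p = 0.0134 from limma), or 1.62-fold. It crossed the fold change limit without CEM PA mock replicate 1 (0.82) and without CEM RES mock replicate 1 (0.78). MCL1, a short-lived protein on which many leukemias depend, read 9.61, 10.16 and 9.91 in CEM PA against 10.28, 10.01, 9.56 and 9.70 in CEM RES. Its groups overlapped fully, with a difference of -0.01 (95% interval -0.52 to 0.50).

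BCL2 also split by probe. Its 5′ probe read 8.30, 8.86 and 8.71 on the mock CEM PA arrays and 9.62, 9.31, 8.99 and 9.26 on the mock CEM RES arrays. All CEM RES arrays were higher, by 0.67 (standard error 0.18, adjusted p = 0.00788 from limma). The 3′ probe read 9.10, 9.29 and 9.36 in CEM PA against 9.12, 9.03, 8.38 and 8.75 in CEM RES, with overlapping groups and a difference of -0.43 (95% interval -0.86 to -0.01, adjusted p = 0.0882 from limma). The 5′ probe crossed the fold change limit without CEM PA mock replicate 2 (0.79) or CEM RES mock replicate 3 (0.77).

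**Figure D4:**
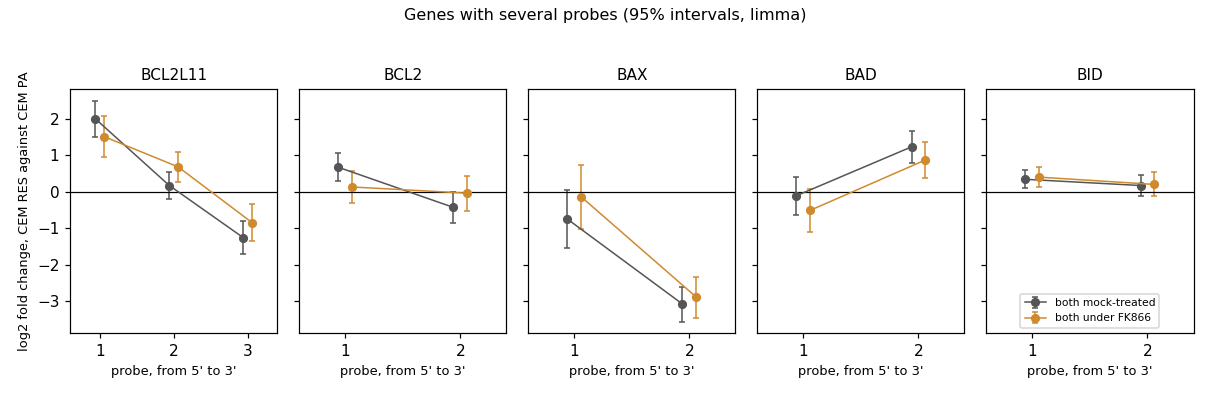
Log2 fold change of CEM RES against CEM PA at each probe of the 5 members with several probes, numbered from 5′ to 3′ on the strand of the gene, with both lines mock-treated (grey) or under FK866 (orange) and 95% intervals from limma. In BCL2L11 the mock comparison runs from 2.00 through 0.17 to -1.26, in BAX from -0.75 to -3.08 and in BAD from -0.11 to 1.23.

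A difference between the 5′ and 3′ probe of a gene was common on the array. For 3499 genes with kept probes at different positions on the same strand, the log2 fold change of mock CEM RES against mock CEM PA was larger at the most upstream probe in 62.2%, and the median of upstream minus downstream was 0.25. The same median was 0.17 for the FK866 response of CEM PA, -0.10 for that of CEM RES and -0.04 between the lines under FK866, so probe position moved with the groups over the whole array. For BCL2L11 the upstream minus downstream difference between the mock-treated lines was 3.27, and 55 of the 3499 genes (1.57%) had an absolute difference at least as large. For BAX it was 2.34 (5.97% of genes at least as large), for BAD -1.35 (21.2%) and for BCL2 1.1 (29.0%). The part of that shift in the differences between probes of these members was not tested.

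The difference between lines was also read with both under FK866, where CEM PA had 2 arrays. These values use other arrays than the mock comparison. Here 6 of 16 member probes passed the double threshold, 3 higher and 3 lower, against 30.7% of all probes. An adjusted p under 0.05 was reached by 8, against 36% of all probes, and the groups did not overlap for 11, against 57.8%. The 3′ probe of BAX read 12.20 and 12.35 in CEM PA against 9.57, 9.59, 9.17 and 9.20 in CEM RES. It was again lower on every CEM RES array, by -2.89 (standard error 0.25, adjusted p = 1.62e-05 from limma), or 7.44-fold. Its 5′ probe differed by -0.14 (adjusted p = 0.811 from limma), and 2.03% of the 3499 genes had probes at least as far apart. BBC3 read 8.12 and 8.0 in CEM PA against 6.14, 6.98, 6.59 and 6.74 in CEM RES, a log2 fold change of -1.45 (adjusted p = 0.00102 from limma). BCL2L11 was 1.51 at the 5′ probe, 0.68 at the middle probe and -0.85 at the 3′ probe (adjusted p = 0.000963, 0.0158 and 0.0138 from limma). The opposite direction of its end probes was thus present under both treatments.

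PMAIP1 read 11.79 and 11.95 in CEM PA under FK866 and 12.93, 12.55, 12.81 and 12.24 in CEM RES. Its line difference of 0.76 (standard error 0.22, adjusted p = 0.0185 from limma) lay just past the fold change limit and fell under it with 75th percentile scaling (0.68), with the normexp background (0.73) and without CEM PA FK866 replicate 1, CEM RES FK866 replicate 1 or CEM RES FK866 replicate 3 (0.66 to 0.70). BAD was 0.87 higher at its 3′ probe (adjusted p = 0.0104 from limma), while its 5′ probe differed by -0.51 (95% interval -1.10 to 0.08), with groups that did not overlap. With the probes of BAD averaged the difference was 0.18 (adjusted p = 0.43 from limma) and the call was lost. BAK1 was 0.46 higher (95% interval 0.07 to 0.86, adjusted p = 0.0646 from limma), so it did not pass. Of the anti-apoptotic members, BCL2L1 differed by 0.03 (95% interval -0.46 to 0.53), MCL1 by 0.14 (95% interval -0.44 to 0.71) and the BCL2 probes by 0.13 and -0.04. No anti-apoptotic probe passed either test under FK866, and their intervals ran from -0.53 to 0.71.

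Scaling each array to its 75th percentile moved the median over all probes from 0.04 to 0.17 between the mock-treated lines and from 0.06 to 0.20 under FK866, and the changes above are relative to the first of each pair.

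Set side by side, 7 of 12 pro-apoptotic probes and 0 of 4 anti-apoptotic probes passed the double threshold between the mock-treated lines, against 35.6% of all probes. The adjusted threshold was passed by 8 of the 12 (5 higher, 3 lower) and by 2 of the 4 (both higher), against 47.6% of all probes. These 2, the 5′ probe of BCL2 (0.67) and BCL2L1 (0.69), lay just under the fold change limit. With so few probes the counts of the classes are a description. The median log2 fold change was 0.17 over the pro-apoptotic probes and 0.33 over the anti-apoptotic ones, against 0.04 over all probes. Taking for each gene the probe with the highest mean signal, it was 0.34 over the 7 pro-apoptotic genes and -0.01 over the 3 anti-apoptotic genes, so the order of the classes turned with the choice of probe. Within the pro-apoptotic class, the effectors ran from -3.08 to 0.83 and the BH3-only probes from -1.37 to 2.00. Probes bind their targets with unequal strength, so the signals of different members were not set against each other as levels.

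The rest of the apoptosis pathway was read from 73 genes in 7 lists, of which 70 were tested, each by its probe with the highest mean signal. With FK866 in CEM PA 6 of the 70 passed the double threshold, against 6.69% of all probes, and 0 an adjusted p of 0.05, against 1.53%. In CEM RES 0 passed either, against 1.3% and 0% of all probes. The 6 genes were chosen for mention after their values were seen. BCL2L2, which encodes the protective BCL-w, was lower by -1.34, and HRK, a BH3-only gene, higher by 1.18, BNIP1 by 0.82, BCLAF1 by 0.88, DDIT3 by 0.78 and MAPK8 by 0.91, with adjusted p from 0.0644 to 0.249 in limma. Between the mock-treated lines 36 of the 70, or 51.4%, had an adjusted p under 0.05, 11 higher and 25 lower. Of all probes 47.6% did, 5667 higher and 5169 lower. Among the 66 genes well above background on every array of both groups the count was 34, 11 higher and 23 lower. The counts of single lists below are a description, to be read against that 47.6%.

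Of 18 genes of the apoptosome, the caspases and mitochondrial release, 2 rose and 6 fell between the mock-treated lines at the adjusted threshold. DIABLO, which frees caspases from XIAP, rose by 1.25 (adjusted p = 1.38e-05 from limma) and CASP2 by 1.13. DFFB, a nuclease that cuts DNA in dying cells, fell by 1.38, the initiator CASP8 by 1.28 and APAF1, the core of the apoptosome, by 1.19 (adjusted p = 0.0149 from limma). Of 7 inhibitors of apoptosis 4 fell and 0 rose, BIRC6 by 1.45 and XIAP, a direct caspase inhibitor, by 0.90 (adjusted p = 0.000807 and 0.0106 from limma).

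In the death receptor arm 2 of the 9 genes well above background on every array of both groups rose and 2 fell. CFLAR, whose product c-FLIP blocks caspase 8, rose by 1.84 (adjusted p = 1.85e-05 from limma). FASLG, the ligand of FAS, was lower by -3.48, but only 1 of 4 mock CEM RES arrays measured it well above background, so it entered the test through CEM PA and the size is uncertain. The decoy receptor gene TNFRSF10D fell by 2.78 (adjusted p = 0.000124 from limma), and TNFRSF10C, which also entered through CEM PA and was not well above background on any mock CEM RES array, was at least 1.87-fold lower.

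Of the other BCL2 proteins, 0 of 4 pro-apoptotic genes rose and 2 fell between the mock-treated lines. BMF, another BH3-only gene, fell by 2.58, from 7.08 to 4.50 (adjusted p = 7.59e-05 from limma). Of the 2 anti-apoptotic genes tested 1 rose and 1 fell, the latter BCL2L2 by 0.90 (adjusted p = 0.0166 from limma). BCLAF1 rose by 1.48 (adjusted p = 0.000339 from limma) among 9 BNIP and BCL2-like genes, of which 2 rose and 1 fell. Of 18 genes that set the amount or activity of BCL2 family proteins 4 rose and 7 fell. HUWE1, a ubiquitin ligase that marks MCL1 for decay, rose by 1.01 and FBXW7, which does the same, fell by 1.25, MAPK8 rose by 1.39, DDIT3 by 0.80, and NR3C1, the glucocorticoid receptor, fell by 1.11 and BAG3 by 0.91 (adjusted p from 0.00012 to 0.0196 in limma).

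With both lines under FK866, 35 of the 70 had an adjusted p under 0.05, 10 higher and 25 lower, against 36% of all probes, of which 4099 were higher and 4087 lower. Among the 65 well above background on every array of both groups it was 31, 10 higher and 21 lower. HRK, well above background on 3 of 4 CEM RES arrays, had a log2 fold change of -1.71 (adjusted p = 0.00205 from limma). BNIP2 was at -0.85, CASP10 at -0.79 and BTRC, part of a ubiquitin ligase, at 0.95. BMF was at -2.30, DIABLO at 1.11, CFLAR at 1.32 and TNFRSF10D at -2.28.

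**Figure D5:**
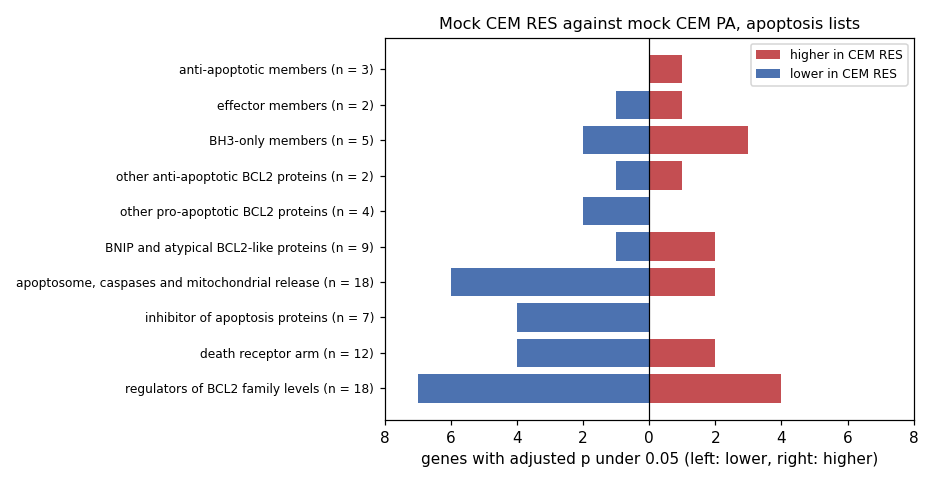
Number of genes in each list with an adjusted p under 0.05 between mock-treated CEM RES and mock-treated CEM PA, lower to the left (blue) and higher to the right (red), each gene by its probe with the highest mean signal and n the number tested. The inhibitor of apoptosis list has 4 genes lower and 0 higher, and the apoptosome and caspase list 6 lower and 2 higher.

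The named genes outside the family whose log2 signal over the 13 arrays was most like that of a member were, by Pearson correlation, SLC39A7 for BAX (0.991), MANF for BCL2L11 (0.993), DNAJB14 for PMAIP1 (0.986), ENC1 for BBC3 (0.976), PEMT for BAK1 (0.981), VAC14 for BAD (0.988), ALG8 for BID (0.972), OSGEPL1 for BCL2 (0.968), PES1 for BCL2L1 (0.952) and LMO4 for MCL1 (0.887). These were chosen as the highest among all named genes, each member was read by its probe with the highest mean signal, and the arrays share cell line and scan session, so the values are a description.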

How the data were processed

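RNA of 13 samples in 4 groups was hybridized to 1-colour Agilent arrays of 60-base probes. The authors deposited per array the intensity of each spot from Agilent Feature Extraction (10.7.3.1 in the file headers, 10.7.7.1 in the submitters' processing notes), background-corrected and not normalized between arrays, and a table of quantile-normalized log2 values, used here as an alternative. The authors' methods name quantile normalization, removal of low signals, limma and the double threshold.

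Here the processed signal was put on the log2 scale, outlier spots were set to missing, control spots removed, the 13 arrays quantile normalized and the spots of a probe averaged. A probe was kept when some group had it well above background on all its arrays (22751 of 34127). Every kept probe was a feature of 1 limma model over the 4 groups (limma 3.58.1, R 4.3.3), with p adjusted by Benjamini-Hochberg over 22751 probes. All p values are two-sided and from limma's moderated test unless called exact. Intervals are 95% intervals from the same fit. The series' text calls the replicates biological, and the number of arrays limits the precision.

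Equal replicate numbers of mock and FK866 arrays were checked by the correlation of their deviations from the group means. It was 0.2 to 0.474 for the 4 equal numbers of CEM RES and 0.353 and 0.46 for the 2 of CEM PA. Unequal numbers were not compared, so whether the numbers mark pairs was not tested. The 2 FK866 arrays of CEM PA deviate from their mean in opposite directions, so its 2 values are not separate.

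Alternatives were 75th percentile scaling, normexp background (offset 50), no or a stricter filter, outlier spots kept, 1 probe or the mean of the probes per gene, the deposited table, the compared groups fitted alone, blocks for slide and for replicate number, session as a random block, array weights, an intensity trend, exact permutation, values within session or slide, and each array left out. Session as a fixed block was added after seeing the data. The members and lists were chosen with earlier results of these data known. Named genes are all members, up to 3 per direction of each other list with an adjusted p under 0.05 that also pass the fold change limit, and genes most like a member, not all of which are printed. Symbols are those of the array design, and all 10 members are current symbols of RefSeq on GRCh38.p14, used for names only. The procedure was tested on simulated data. Tables were made with Python 3.11.15, numpy 2.4.6, pandas 2.3.3 and scipy 1.17.1 and figures with matplotlib 3.10.9. A further marker gene and the sums of its list are not reported here.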

Additional observations from a re-analysis of the deposited data

Results flagged for a closer look

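In the 2 groups of 4 arrays, 32 sets of values (16 probes in each) were searched for an array far from its group by Dixon's test, and 3 were found, where chance gives about 1 in 20. BAK1 read 11.41 on CEM RES FK866 replicate 1 and 11.82 to 11.89 on the other 3 arrays. The middle probe of BCL2L11 read 7.16 on CEM RES mock replicate 3 and 7.74 to 7.83 on the others. The 5′ probe of BAD read 4.82 on CEM RES FK866 replicate 3 and 5.71 to 5.83 on the others. No member probe had a different response to FK866 in the 2 lines at an adjusted p under 0.05 in limma's interaction test.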

How the results depend on the processing

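With the slide as a block, CEM PA was compared only within slide 1, which held 1 mock and 1 FK866 array of that line. Under the other alternatives that kept every array, the count of member probes past the double threshold for FK866 in CEM PA was 0. With 1 array left out and both CEM PA FK866 arrays kept, it was again 0. For FK866 in CEM RES it fell from 1 to 0 with 75th percentile scaling, the normexp background, 1 probe per gene, the mean of the probes per gene, only the compared groups, the slide as a block, the replicate block and array quality weights, and it ran from 0 to 1 with 1 array left out. The replicate block, which treats equal replicate numbers as pairs, gave 0 in CEM PA and 0 for the interaction, where the count was 0 without it too. It was not fitted between the lines, so the calls there were not checked by it. Between the mock-treated lines the count was 4 with the probes of a gene averaged (6 at the adjusted threshold), and 7 to 8 with 1 array left out (8 to 11 adjusted). Under FK866 it was 3 with averaged probes (3 adjusted), and 5 to 6 with 1 array left out (3 to 9 adjusted). The adjusted count was 4 without CEM PA FK866 replicate 1 and 3 without CEM PA FK866 replicate 2. For the interaction the count past the double threshold was 0 to 1 with 1 array left out and both CEM PA FK866 arrays kept. With the slide as a block the interaction of the 5′ probe of BCL2 was -0.79, resting in CEM PA on slide 1 alone. Averaging the probes reversed the 3′ probe value of BCL2L11, to 0.31 between the mock-treated lines and 0.45 under FK866. That setting counts 10 genes in place of 16 probes. Over all probes, the normexp background gave 662 past the double threshold in place of 1523 for FK866 in CEM PA, 45 in place of 295 in CEM RES and 5090 in place of 8105 between the mock-treated lines, while in CEM RES no filter gave 643 and the stricter filter 97. At the adjusted threshold the replicate block gave 1218 in place of 348 for FK866 in CEM PA and 486 in place of 94 for the interaction, with 0 member probes in both. For FK866 in CEM PA that count was 1411 with array quality weights but 3 with only the compared groups. With the probes averaged it was 43 of 17594 genes. The share of all probes set against the members in CEM PA thus moved with the settings. The exact permutation test of single probes cannot go below p = 0.2 for FK866 in CEM PA, 0.0571 between the mock-treated lines or 0.133 under FK866, and in CEM RES it gave 0.0286 for the 5′ probe of BCL2L11, the smallest p it allows, and 0.143 for the 5′ probe of BAX. Without 1 of the 2 CEM PA FK866 arrays, the spread of the lone array was borrowed from the other groups.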
